A study of Mus musculus with 4 samples.

Results

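The genes described here encode membrane proteins of the ocular lens, namely the connexins Gja1, Gja3, Gjb2 and Gjb6, the water channels Mip, Aqp1 and Aqp5, and the fiber cell membrane protein Lim2. Every probe whose symbol in the deposited normalized table was 1 of these 8 names was taken, which gave 12 of 45263 probes and 8 of 28850 genes. Expression was measured in micro-dissected mouse lenses at postnatal day (P) 6 on arrays that report 1 fluorescence intensity per probe, with RNA of 1 lens on each array. In the Celf1 cKO lenses (n = 2, replicates A and B), 1 Celf1 allele was the germline lacZ knock-in (lacZKI), the other was floxed, and Pax6GFPCre, a Cre line active in cells of the lens and pancreatic lineages, deleted a floxed exon. The Control lenses (n = 2, replicates A and B) were Celf1 lacZKI/+, with the knock-in beside a wild-type allele. Every lens thus carried the lacZ knock-in, no Cre is named for the Control, and all mice were of mixed C57BL/6J and FVB background. The comparison asks which transcripts of the P6 lens differ when CELF1, an RNA-binding protein, is deficient.

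The mature lens has no blood supply of its own, and its fiber cells lie packed against each other in a mass that must stay clear. Connexins assemble into gap junctions, channels through which ions and small metabolites pass from cell to cell, while aquaporins carry water across the membrane. GJA1 is known as the connexin of the lens epithelium and GJA3 as a connexin of the fibers. MIP, also called AQP0, is the most abundant membrane protein of fibers, and LIM2 is a fiber membrane protein related to PMP22. Mutations of GJA3, MIP and LIM2 are known causes of inherited cataract.

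A probe counted as detected where its detection p-value, which ranks the probe's intensity against negative control beads, was under 0.05. On the 4 arrays, 7 of the 12 probes were detected throughout, namely those of Gja1, Mip, Lim2 and Aqp5 and the 3 probes of Aqp1. The Gjb6 probe was detected on 3 arrays. The 4 probes of Gja3 and Gjb2 were detected in 1 of 16 readings, so these genes lay below detection. Genes were tested where a probe was detected on at least 2 arrays, and 6 of the 8 genes passed.

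The following probes carry these statements, as the Gjb6 probe gave the 1 difference past the thresholds, the Gja3 and Gjb2 probes those below detection, and the Lim2 probe a difference that depended on the scaling. Each is a 50-base probe given 5′ to 3′ in lower case, and of the Gjb6 probe the first 30 bases are printed. The number after each name is the position in the transcript at which the probe starts, per the files.
Gjb6, 1998: gagcctttccacctatggtgaacagtgcag
Gja3, 873: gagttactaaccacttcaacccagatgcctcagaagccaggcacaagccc
Gjb2, 489: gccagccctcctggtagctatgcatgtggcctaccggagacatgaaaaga
Lim2, 526: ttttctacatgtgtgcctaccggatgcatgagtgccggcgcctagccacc
The files place the Gjb6 probe at chr14:57742163-57742212, the Gja3 probe at chr14:57654985-57655034, this Gjb2 probe at chr14:57719267-57719316 and the Lim2 probe at chr7:50691021-50691070, without naming a genome build. In the RefSeq gene table of GRCm38.p6, Gja3, Gjb2 and Gjb6 are neighbours on chromosome 14, with the non-coding gene Gm32912 between Gjb2 and Gjb6. Whether a probe lies in a coding exon or a UTR was not determined here.

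**Figure D1:**
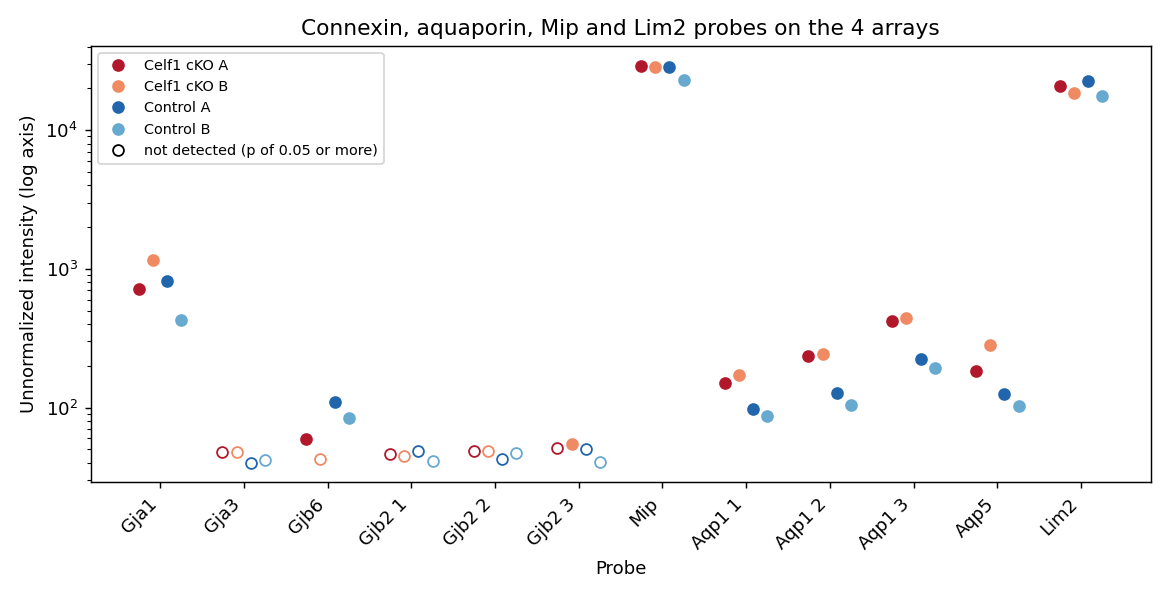
Unnormalized intensity (log axis) of the 12 probes on the 4 arrays, with filled points for detected readings and open points for readings with a detection p of 0.05 or more. Several probes of a gene are numbered by their position in the transcript. The Mip and Lim2 probes lie between 17487.9 and 29068.6, the Gja3 and Gjb2 probes lie between 40.1 and 54.3, and Gjb6 is the probe with detected Control readings that lies at the level of the undetected probes in 1 cKO lens.

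The cKO arrays were brighter than the Control arrays. Detected probes numbered 16261 and 16925 on the cKO arrays against 14542 and 14180 on the Control arrays, and the 99th percentile of intensity was 3208.7 and 3444.3 against 2158.4 and 1699.2, so that brightness and genotype cannot be told apart. Celf1 itself had a fold of -1.43 ± 0.19 (SE) on the log2 scale, at an adjusted p of 0.0098 in limma. Xist, transcribed from the inactive X chromosome, differed by 3.02 ± 0.14 on the log2 scale, and Ddx3y, a Y-linked gene, by -3.09 ± 0.55, both past the thresholds. Xist was at 7.42 and 7.27 in the cKO lenses against 4.26 and 4.39 in the Control lenses, while Ddx3y was at 6.81 in cKO A and 4.82 in cKO B against 8.99 and 8.82. The array of cKO A thus read both transcripts, although it is said to hold RNA of 1 lens, and sex and genotype cannot be told apart. The lowest log2 signal among detected probes was 4.72 on Control A and 4.76 on Control B, above the Xist values there. The size of the Xist fold thus rests in part on readings within the background. Of 15 lens fiber markers, 14 were on the array and tested, and 13 or 14 were detected on each array.

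Of the 6 tested genes, 1 (Gjb6) passed the thresholds, and it was lower in the cKO lenses. To pass, a gene needed a log2 fold change beyond 0.58 in either direction, a mean log2 signal above 4.6 and an adjusted p below 0.05. Over all genes tested the same thresholds called 1341 of 11516, or 11.6%, with 692 higher (6.01%) and 649 lower (5.64%). The cKO and Control values did not overlap for 4 of the 6 genes (Gjb6, Lim2, Aqp1 and Aqp5), against 62.3% of all genes tested. The median log2 fold change of the 6 genes was -0.15, against 0.01 over all genes. All folds below are cKO over Control on the log2 scale of background-corrected, quantile-normalized signal with 16 added, which understates the change of a dim probe.

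Gjb6, also named connexin 30 and best known from the inner ear and skin, was reduced in both cKO lenses. Its unnormalized intensity was 59.3 in cKO A, 42.4 in cKO B, 109.5 in Control A and 84.7 in Control B. Both Control readings were detected (detection p of 0), cKO A was detected at a detection p of 0.01068, and cKO B was not, at 0.75427. The dimmer arrays, those of the Control, thus gave the brighter Gjb6 readings, which is the opposite of the brightness of the arrays as a whole. The log2 signal was 4.82 and 4.23 in the cKO lenses and 6.53 and 6.40 in the Control lenses, with means of 4.53 ± 0.41 and 6.46 ± 0.09 (SD, n = 2).

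The log2 fold change of Gjb6 was -1.94 ± 0.21 (SE), with a 95% interval of -2.43 to -1.44 and an adjusted p of 0.0052 in limma. The lowest log2 signal among detected probes was 4.56 on the cKO B array, above the 4.23 of Gjb6 there. The cKO level was thus measured above background on 1 of 2 arrays, and the size of the fold rests in part on a reading within the background. Gjb6 would have passed the detection filter on its Control readings alone. Leaving out each lens in turn left the fold between -2.14 and -1.56, past the thresholds each time. With the deposited normalized intensity and values under 1 set to 1, the fold was -4.32 and the adjusted p 0.137, since the deposited values were 18 and 1.2 in the cKO lenses against 97 and 88.8 in the Control. Without the detection filter the fold stayed at -1.94, and the adjusted p was 0.0569 over the larger number of genes. As the RNA came from whole lenses, fewer cells that express a gene and less RNA per cell cannot be told apart, for Gjb6 and for the genes below.

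Gja1, or connexin 43, did not differ beyond the spread of the lenses. Its intensity was 715.4 in cKO A, 1148.7 in cKO B, 812.8 in Control A and 429.3 in Control B, and the readings of the groups alternated in order. The reading of Control B had a standard error over beads of 17.7% (25 beads), against 3.58 to 4.64% on the other arrays. The log2 signal was 9.05 and 9.63 in the cKO lenses and 9.86 and 9.27 in the Control lenses, and the groups overlapped. The log2 fold change was -0.22 ± 0.26 (SE), adjusted p = 0.592 in limma, with a 95% interval of -0.83 to 0.39. Without cKO A the fold was 0.074, and without cKO B it was -0.51, so its sign was set by single lenses.

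The Gja3 probe read 47.6 and 47.8 in the cKO lenses and 40.1 and 42.0 in the Control lenses, with detection p-values from 0.22115 to 0.93697. GJA3, or connexin 46, joins fiber cells to each other, and this single probe was detected in no lens. In newborn lenses the paper reports Gja3 RNA by sequencing, at a reduced level in the cKO. A reading at background on 1 probe thus does not show that the transcript was absent. The Gjb2 probe shown above read 44.8 to 46.0 in the cKO lenses and 41.3 to 48.4 in the Control lenses. Of its other probes, the one at 1945 read 42.9 to 48.9 over the 4 lenses, and the one at 2164 read 51.3, 54.3, 50.3 and 40.7 in cKO A, cKO B, Control A and Control B. The reading of 54.3 in cKO B was the 1 detected, at a detection p of 0.04808. No fold or test is given for Gja3 or Gjb2, and a difference in them was not detectable on these arrays.

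Among the water channels, Mip was bright in every lens. Its intensity was 29068.6 in cKO A, 28511.2 in cKO B, 28317.5 in Control A and 22999.8 in Control B, and Control B was the dimmest array by its 99th percentile. The log2 signal was 14.75 and 14.61 in the cKO lenses and 14.75 in each Control lens. Mip ranked 14th among all probes on 3 arrays and 17th on cKO B, and quantile normalization gives probes of the same rank the same value. The log2 fold change was -0.07 ± 0.14 (SE), with a 95% interval of -0.40 to 0.26 and an adjusted p of 0.753 in limma. This value depended on the scaling. With the deposited normalized intensity, where the Control arrays had been multiplied by larger factors, Mip read 26492.9 and 25310.8 in the cKO lenses against 41261.6 and 44337.2 in the Control, and the fold with 16 added was -0.72 (adjusted p = 0.0302 in limma). With no scaling between arrays the fold was 0.17.

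Aqp1 encodes a water channel of the lens epithelium that is also abundant in capillary endothelium and red blood cells. Its probe at 2665 read 417.4 and 442.1 in the cKO lenses and 224.9 and 193.6 in the Control lenses. The probe at 2251 read 233.3 and 245.1 against 126.6 and 104.6, and the probe at 2152 read 150.4 and 172.2 against 97.4 and 87.3. On all 3 probes both cKO readings were brighter than both Control readings, as the cKO arrays were as a whole. After normalization the mean of the 3 probes was 7.39 and 7.41 in the cKO lenses and 6.99 and 7.10 in the Control lenses, still without overlap. The fold was 0.35 ± 0.14 (SE), with a 95% interval of 0.03 to 0.67 and an adjusted p of 0.132, and did not pass. The 3 probes gave folds of 0.29, 0.30 and 0.46, none past the thresholds, which 11.5% of all probes tested passed. Of the vessel markers, 6 of 7 were tested and 1, Emcn, was called, higher in the cKO lenses by 1.12. The share called over all genes tested, 11.6%, is the background for this count and for that of the red blood cell markers below. Of the others, Cdh5 and Cldn5 gave 0.58 and 0.53, whereas Kdr, Tek and Pecam1 gave -0.59, -0.26 and -0.06, and the median of the 6 was 0.23. Their summed signal was 418 and 421 in the cKO lenses and 319 and 288 in the Control lenses. The summed signal of red blood cell markers was 636, 284, 541 and 452 in cKO A, cKO B, Control A and Control B, and 1 of the 3 tested (Slc4a1) was called, lower in the cKO lenses. The part of vessels or blood in the Aqp1 values was not tested.

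Aqp5, a water channel of lens fibers, corneal epithelium and secretory glands, read 183.9 in cKO A, 281.3 in cKO B, 124.9 in Control A and 102.4 in Control B. Its log2 signal was 6.93 and 7.50 in the cKO lenses against 6.80 and 6.81 in the Control lenses, so that cKO A lay close to the Control and cKO B well above it. The fold was 0.41 ± 0.20 (SE), with a 95% interval of -0.07 to 0.89 and an adjusted p of 0.213, and did not pass. Without cKO B the fold was 0.12, and without cKO A it was 0.69 (adjusted p of 0.815 and 0.106 in limma).

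Markers of corneal epithelium were detected on the cKO B array alone. None of the 7 passed the filter, but 4 of them were detected in cKO B (Aldh3a1, Krt14, Krt15 and Krt12) and 0 on each of the other arrays, and their summed signal was 131 in cKO B against 30.2 to 34.6 elsewhere. Aldh3a1, an abundant enzyme of the cornea, read 159.1 in cKO B and 43.7 to 52.4 in the other lenses. Krt12, the keratin that defines this epithelium, read 55.9 in cKO B and 44.9 to 53.1 elsewhere, and Krt5, Trp63 and Upk1b were detected on no array. Of the corneal stroma markers, Kera, Lum, Col1a1 and Col1a2 were detected on no array. Their summed signal, 60.1 in cKO B and 31.3 to 36.0 elsewhere, was carried there by Dcn and Ptgds, which other tissues express as well. More detected genes in cKO B were not particular to cornea. Pigment cell markers had 3 detected there against 1 on each other array, and retina markers 2 against 0 to 1. Red blood cell and muscle markers had the same number on every array (3 and 1). The cKO B lens had the highest Aqp5 values and, before normalization, the highest Gja1 intensity, on the array with the most detected probes. It also had the 1 detected Gjb2 reading, whose detection p of 0.04808 lay close to the threshold of 0.05. After normalization Gja1 was highest in Control A. The part of corneal epithelium in these values was not tested.

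**Figure D2:**
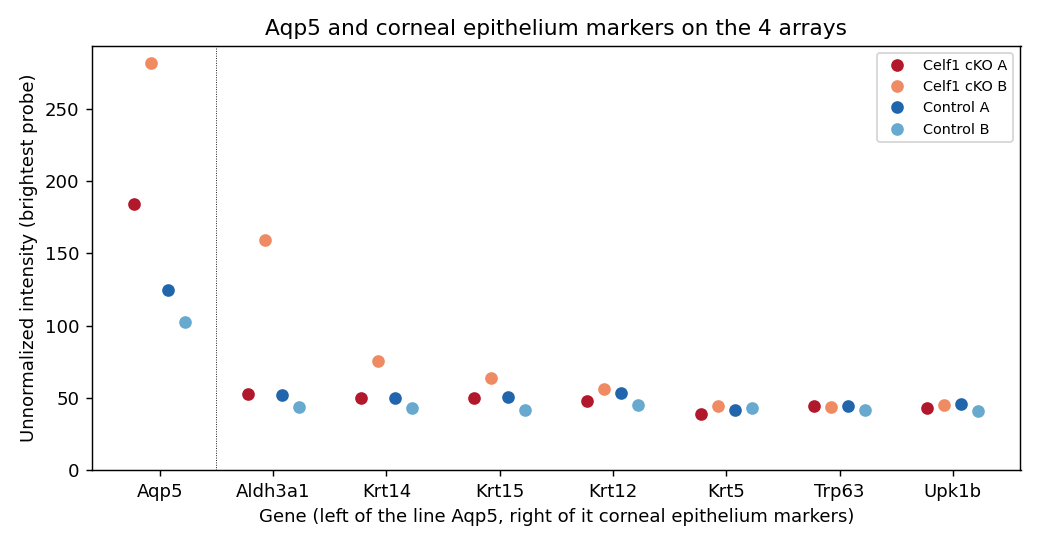
Unnormalized intensity (linear axis from 0) of Aqp5 and of 7 corneal epithelium markers on the 4 arrays, 1 point per array, with the brightest probe of each gene. In cKO B, Aqp5 reads 281.3 and Aldh3a1 159.1, the highest reading of the 4 lenses for both genes.

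Lim2, also called MP20, was lower in both cKO lenses, with a difference that did not pass the thresholds. Its intensity was 20758.1 in cKO A, 18545.4 in cKO B, 22613.3 in Control A and 17487.9 in Control B, which overlapped before normalization. After it, the log2 signal was 14.08 and 13.91 in the cKO lenses and 14.52 and 14.43 in the Control lenses, with means of 14.00 ± 0.12 and 14.48 ± 0.07 (SD, n = 2). The probe ranked 38th and 46th by intensity on the cKO arrays and 20th and 23rd on the Control arrays. The fold was -0.48 ± 0.14 (SE), a ratio of 0.717, with a 95% interval of -0.82 to -0.14 and an adjusted p of 0.069 in limma. It passed under other scalings, at -0.61 with cyclic loess (adjusted p = 0.0371), -0.78 with the same median of detected probes (0.0132) and -0.92 with the deposited normalized intensity with 16 added (0.0203). With values under 1 of that table set to 1 in place of the addition, the fold was again -0.92 but did not pass (0.081). With no scaling between arrays it was -0.02 (adjusted p = 0.945 in limma), and with the same median of all probes -0.06 (0.834), where the median of all genes was 0.57 and 0.53.

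Within each array, where the scaling between arrays plays no part, the log2 ratio of the Lim2 to the Mip intensity was -0.49 in cKO A, -0.62 in cKO B, -0.32 in Control A and -0.40 in Control B. The group means were -0.55 ± 0.10 and -0.36 ± 0.05 (SD, n = 2), a difference of -0.19, without overlap. With 2 lenses against 2, an exact permutation test, two-sided, can give no p below 0.333. Mip read 65.2 to 71.3% and Lim2 44.4 to 56.0% of the brightest probe of each array, and the part of compression near the top of the scale in this ratio was not tested. The ratio does not say which of the 2 probes differed.

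**Figure D3:**
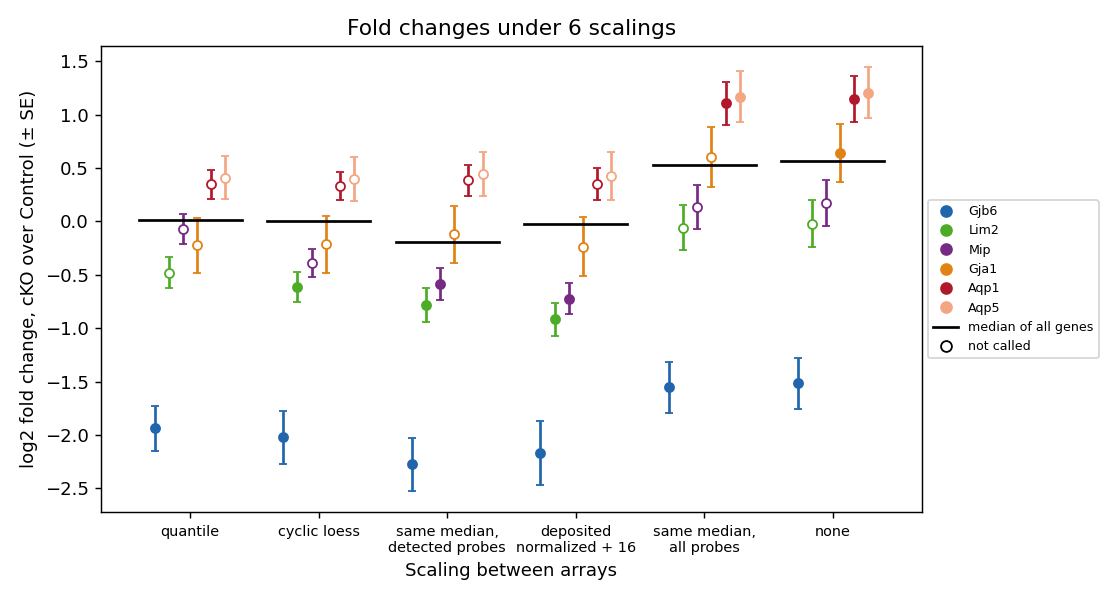
Log2 fold change (cKO over Control, points with bars of 1 SE) of the 6 tested genes under 6 ways of scaling the arrays, with the median of all genes as a black line and open points for values that did not pass the thresholds. Gjb6 lies below the line under all 6 scalings, Lim2 as well, and Mip and Gja1 change sign where the arrays are left unscaled or are set to the same median of all probes.

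When the arrays were left unscaled, the median of all genes moved to 0.57, 97.7% of the 5788 genes called were higher in the cKO lenses, and Aqp1 (1.14), Aqp5 (1.21) and Gja1 (0.64) passed as higher beside Gjb6 as lower. Relative to the median of all genes, Lim2 lay between -0.90 and -0.40 and Gjb6 between -4.30 and -1.06 over all alternatives that tested them, with the smallest difference of Gjb6 where no background was subtracted. Aqp1 lay between 0.26 and 0.57 and Aqp5 between 0.13 and 0.70 on the same footing, while Mip (-0.70 to 0.01) and Gja1 (-0.52 to 0.09) reached both sides.

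Relatives and partners of these genes were read from lists of 45 genes, of which 25 were tested and 5 passed (Panx1, Emp1, Calm2, Msn and Bfsp2). The share over all genes tested, 11.6%, is the background for this count and for those of the lists that follow. None of the 7 tested of 16 other connexins passed. Of these lists, Gja6 and Emp2 were detected on the 2 cKO arrays alone and so entered the test only through them, and no median is given for the lists that hold them. Gje1, a connexin gene of the lens, had a fold of 0.16 ± 0.15 (SE, adjusted p = 0.509). Of 4 tested among 9 other aquaporins, 0 passed, with a median of 0.04, and Aqp4 and Aqp11 gave 0.32 and -0.25.

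Of the pannexins, which form channels related in shape to those of connexins, 1 of 2 tested passed. Panx1, which releases ATP, was higher in the cKO lenses by 0.67 ± 0.14 (SE, adjusted p = 0.0302), from 4.92 and 5.01 in the Control lenses to 5.55 and 5.73. Among the PMP22 relatives of Lim2, Emp1 rose by 0.94 ± 0.14 (adjusted p = 0.0116), with 7.18 and 7.12 against 6.16 and 6.26. Emp3 gave 0.57 without passing, and Pmp22 itself gave -0.07. EMP1 is an epithelial membrane protein. Its fold was positive, while that of Lim2 was negative without passing and depended on the scaling.

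Of 13 binding partners of connexins and MIP, 8 were tested, 3 passed and the median was -0.34. Bfsp2, a beaded filament protein that MIP binds in fibers, fell by 0.76 on the log2 scale (-0.76 ± 0.14 SE, adjusted p = 0.0227), with 12.52 and 12.35 in the cKO lenses against 13.14 and 13.25 in the Control lenses. Calm2, 1 of the genes for calmodulin, which binds MIP and connexins, rose by 0.70 ± 0.15 (adjusted p = 0.0306), whereas Calm3 gave -0.42 without passing. Msn, or moesin, which links membrane proteins to actin, rose by 0.95 ± 0.17 (adjusted p = 0.0192). Pakap, a kinase anchor, gave -0.57 at an adjusted p of 0.0498 but missed the fold threshold, and Nedd4, a ubiquitin ligase, gave -0.59 (0.082). All of these adjusted p-values are from limma. The number of relatives and partners that passed was 1 of 23 tested (Msn) when cKO A was left out, 6 of 24 when Control A was, 0 of 20 without cKO B and 0 of 23 without Control B. Of the 25, 2 (Bfsp2 and Emp1) passed with no background correction and with normexp, 0 with the deposited intensity floored at 1, and 12, all of them higher, with the arrays unscaled. Without Control A the 6 were Bfsp2, Calm2, Emp1, Msn, Nedd4 and Panx3, so that Panx1 passed with no lens left out and in none of these 4 fits. Panx1 also did not pass with the same median of detected probes, and Calm2 did not with the brightest probe of each gene. With no detection filter 1 (Emp1) passed. For comparison, 3 of the 14 tested fiber markers (Bfsp2, Dnase2b and Maf) and 2 of the 7 tested lens epithelium markers (Foxe3 and Pdpn) passed, all lower in the cKO lenses. The fiber marker Sox1 was likewise detected on the cKO arrays alone, and the median of the epithelium markers was -0.54. Of the macrophage markers, Cd68 and C1qb were detected on the 2 cKO arrays alone, with intensities of 63.1 to 74.0 there against 39.8 to 46.3 on the Control arrays. They entered the test only through the group in which they were high, so no count is read from them. Csf1r, detected on all 4 arrays, gave -0.11. The part of such markers in the values above was not tested.

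**Figure D4:**
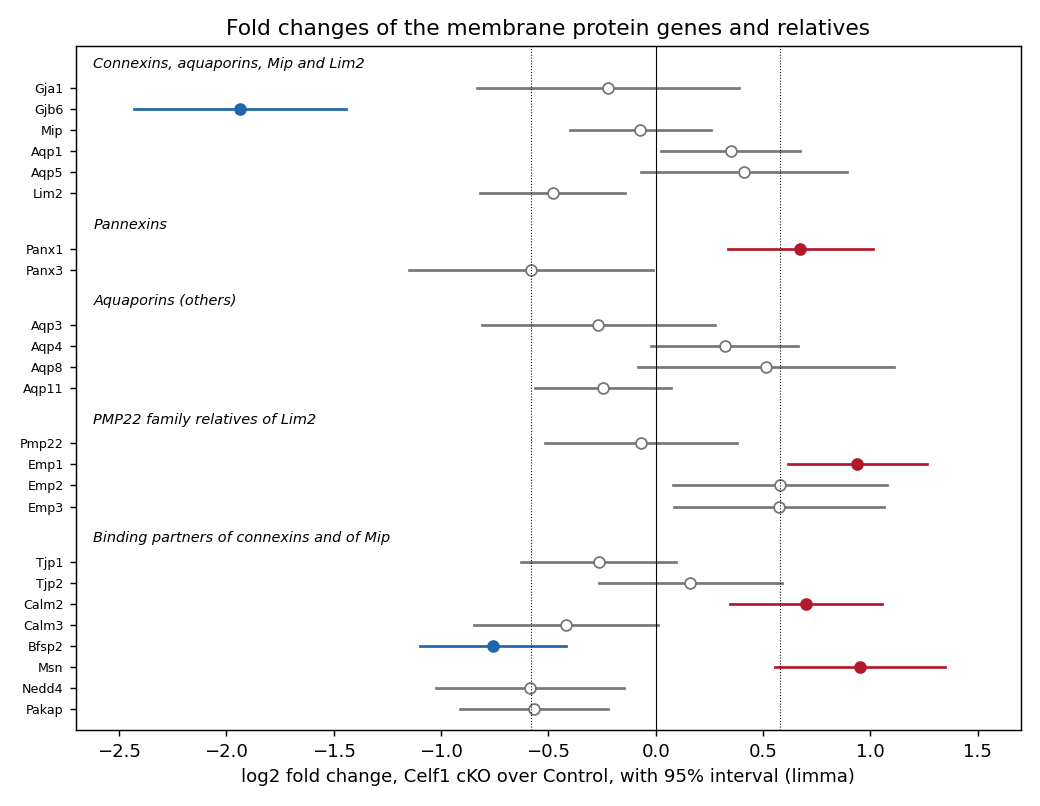
Log2 fold changes (cKO over Control) with 95% intervals from limma for the 6 tested genes and the tested pannexins, other aquaporins, PMP22 relatives and binding partners, in blue where lower and red where higher past the thresholds (dotted lines at the fold threshold of 0.58). Gjb6 at -1.94 lies farthest from 0, and the intervals of Gja1, Mip and Aqp5 include 0.

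The genes whose log2 values over the 4 lenses lay closest to those of Gjb6, after centring each gene on its own mean, were Svbp, Itpr2 and Sohlh1, at Euclidean distances of 0.08, 0.12 and 0.21. All 3 were called lower in the cKO lenses, with folds of -1.90, -1.87 and -1.74, as a small distance from Gjb6 requires. Closest to Lim2 were Ctnnd2, Rpl31-ps14 and Zfp773, at distances of 0.01, 0.03 and 0.04. Closest to Aqp1 were Tnip2, Thoc1 and Styxl1, at 0.02, 0.03 and 0.03. Over 4 lenses such distances are descriptions of these arrays.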

How the data were processed

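Total RNA of lenses, 1 lens per biological replicate, was hybridised to Illumina MouseWG-6 v2.0 BeadChips, 1 array per sample. The authors deposited a table of unnormalized intensity and a table of normalized intensity, which per the file headers was scaled by the rank-invariant method, together with detection p-values. On each array the normalized values were a linear function of the unnormalized ones, with factors of 0.913 and 0.889 on the cKO arrays against 1.46 and 1.93 on the Control arrays, which raises the bright probes of the Control arrays. The standard error over beads of detected probes was a median of 4.36 to 7.26% of the signal, and the number of arrays limits the precision.

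From the unnormalized intensity, 18 lines with shifted cells were left out and 45263 probes kept. In R 4.3.3, limma 3.58.1 was used to correct the background by neqc with an offset of 16, followed by quantile normalization and log2. Probes with a detection p-value under 0.05 on at least 2 arrays were kept, probes of a gene were averaged as log2 values, and groups were compared with lmFit and eBayes, as two-sided tests whose p-values were adjusted over all genes by Benjamini-Hochberg. Thresholds, after the study's methods, were a log2 fold change beyond 0.58 in either direction, a mean log2 signal above 4.6 and an adjusted p below 0.05. The minimum of 4.6 was applied here to signal with 16 added and did not alter the count, as 1341 genes passed with and without it. The authors ran edgeR, which models counts, whereas limma was used here since the values are intensities. Each probe of a gene was also fitted on its own. The fit was tested on simulated data. Figures were drawn with Python 3.11.15. Gene names came from the RefSeq table of GRCm38.p6 and, where unmatched, from the files.

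The genes named are the 8 genes chosen by symbol, Celf1, Xist, Ddx3y, the called genes of the lists of relatives and partners and, for up to 3 of the 8 genes with the lowest adjusted p, the 3 genes with the nearest log2 pattern. Other list genes and markers were named after their values were seen. The 8 genes and all lists were chosen with earlier results of these data known. Alternatives were run for the choice of table, scaling, background correction, detection filter, minimum signal, several probes, variance model, the replicate letter as a block and leaving out each sample in turn. Other markers (corneal stroma, pigment cells, retina, muscle) had 1 gene tested each and 0 called. A gene of the lists, counted in them, is not reported by name here.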

Additional observations from a re-analysis of the deposited data

How the results depend on the processing

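Of the 6 tested genes, Gjb6 was lower under every alternative that tested it and missed the threshold under 2 of them, at -4.32 with the deposited normalized intensity floored at 1 and at -1.94 with no detection filter. It was not tested where detection was required on all arrays. Leaving out each lens in turn gave -2.14 to -1.56 for Gjb6. Lim2 passed with the deposited intensity with 16 added (-0.92), the same median of detected probes (-0.78) and cyclic loess (-0.61), and stood at -0.02 with no scaling and -0.06 with the same median of all probes. Mip passed with the first and second of these (-0.72 and -0.59) and turned to 0.17 with no scaling and 0.14 with the same median of all probes. Gja1 turned to 0.64 and 0.60 under the same pair, and leaving out each lens in turn gave -0.52 to 0.074 for Gja1, with 0.074 without cKO A and 0.072 without Control A. Aqp1 (1.14 and 1.11) and Aqp5 (1.21 and 1.17) passed under that pair. The median of all genes stood at 0.57, 0.53 and -0.19 with no scaling, the same median of all probes and the same median of detected probes. The cause of these shifts was not tested.

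The number of the 8 genes that passed was 1 in the reported fit, 0 with the floor of 1, with no detection filter and with detection on all arrays, 2 with cyclic loess, 3 with 16 added to the deposited intensity and with both median scalings, and 4 with no scaling. Over all genes, 1341 passed in the reported fit, 7 with the floor of 1 (3164 at an unadjusted p under 0.05), 718 with no background correction, 725 with normexp at an offset of 50, 5788 with no scaling, 5417 with the same median of all probes, 2690 with that of detected probes and 207 with no detection filter. The share of calls that were higher moved from 51.6% to 97.7%, 97.3% and 24.8% under the 3 last-named scalings in that order. Leaving out each lens in turn gave 163 to 1364 calls, the other counts being 593 (cKO A left out) and 170 (Control B left out), while the lowest came without cKO B, and a lone lens is then assumed to vary like the other group.

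The replicate letters are not said to pair the lenses, and the A minus B differences of the groups correlated at -0.01 over genes. With a replicate block, 1685 genes passed, 1 of the 8 among them (Gjb6, adjusted p = 1.32e-04 in limma), and no other call among the 8 changed.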
